A study of Anethum foeniculum with 6 samples.

Results

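The longest assembled transcripts of fennel leaves were examined as a group of 132 Trinity genes, of 27955 in all, each with at least 1 contig of 7000 bases or more. A contig is a transcript sequence put together from overlapping reads, and a Trinity gene is a cluster of contigs that the assembler took to come from 1 locus. The length of the contig alone decided membership, and 179 of 45273 contigs met it. Including their shorter contigs, the 132 genes held 347 contigs. All 132 genes had enough reads to be tested, whereas 72.7% of the genes as a whole did (20327 genes).

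Messenger RNAs of this length usually encode very large proteins. In plants these are known to include the AAA ATPase midasin of ribosome assembly, the kinase TOR, the auxin transport protein BIG, the splicing factor PRP8 and cytosolic acetyl-CoA carboxylase. Many belong to the general upkeep of the cell. A long contig can also arise when an intron is kept or when neighbouring transcripts are joined in the assembly. The deposited tables pair no contig with a gene name or a sequence, so which of these proteins the 132 genes encode was not examined here, and the leaf origin could not be checked against marker genes.

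Wild-type fennel was grown in hydroponics for 5 weeks under the 800 ppm or the 400 ppm CO2 condition, and leaf RNA was sequenced as 3 libraries per condition. The libraries held between 13118825 and 19841835 estimated reads, and an exact permutation test of these totals, two-sided with 3 libraries per condition, gave p = 0.8 (the smallest p it allows is 0.1). The labels call the libraries biological replicates without saying how many plants each came from, so the tests measure the spread between these libraries. CO2 was supplied per greenhouse, and effects of CO2 and of the greenhouse cannot be told apart. In whole leaves, fewer cells of a type and less RNA per cell cannot be told apart either.

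The 179 long contigs measured 7001 to 17040 bases, with a median of 7944 bases. Of these, 84 reached 8000 bases, 31 reached 10000 bases and 4 reached 15000 bases. They made up 0.395% of the contigs and 1.99% of the assembled bases in the tables. Among all genes the median longest contig was 1448 bases.

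Most of the very long genes were assembled as several contigs. A single contig represented 51 of the 132 genes (38.6%), against 67.2% of the remaining genes, while among the 1192 genes whose longest contig lay between 4000 and 6999 bases the share was 35.4%. The number of contigs reached 8, in 3 genes. A single long contig was present in 104 genes and several long contigs in 28 genes. In 72 genes long and shorter contigs stood side by side, and there the long contigs carried a median of 73.3% of the reads of the gene. Of the abundance of the gene, which takes length into account, they held less. The median was 46.5% at 800 ppm and 44.0% at 400 ppm (means over 3 libraries each). They carried more than 50% of the reads in 52 of these genes and under 10% in 3. A long contig was therefore not always the contig that held the reads, and 5 of the 179 long contigs had no reads in any library.

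Per length, and summed over the long and the shorter contigs of each gene, the very long genes were expressed at levels close to those of other genes. Their mean TPM over the 6 libraries (the authors' level per transcript length, which sums to the same total in each library) had a median of 16.4, with quartiles of 7.82 and 34.2, against a median of 13.8 and quartiles of 4.92 and 34.3 for the remaining genes tested. Their range ran from 0.557 to 1627 TPM. Only 4 genes lay under 1 TPM, 38 lay between 1 and 10 TPM, 81 between 10 and 100 TPM, and 9 at 100 TPM or more. The median member stood at percentile 54.7 of all genes tested by TPM and at percentile 87.0 by reads, since a long transcript yields more reads at the same TPM. The median read number was 1283 per library for the very long genes and 248.8 for the rest.

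A single gene took much of the signal. TRINITY_DN1617_c0_g2, with a longest contig of 8002 bases, held 32.7% of all reads on the 132 genes, and the 10 genes with most reads held 55.2%.

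The very long genes took a smaller share of the reads under the 800 ppm condition. They received 2.57%, 2.37% and 1.85% of the library reads at 800 ppm (mean 2.26% ± 0.369, SD, n = 3), against 2.75%, 3.18% and 2.76% at 400 ppm (2.90% ± 0.246, SD, n = 3). The groups did not overlap. Without TRINITY_DN1617_c0_g2 the shares were 1.48%, 1.61% and 1.35% at 800 ppm, against 1.87%, 2.10% and 2.04% at 400 ppm, again without overlap. Counting the reads of the long contigs alone gave 2.24%, 1.95% and 1.51% at 800 ppm, against 2.27%, 2.69% and 2.26% at 400 ppm. By this count 800 ppm replicate 1 lay just under the lowest libraries at 400 ppm. All of these shares are of unscaled reads. With scaling by library size alone, the median fitted log2 fold change, 800 over 400 ppm, was −0.28 for all genes tested. It was −0.58 for the very long genes. These medians count each gene equally, and their relation to the smaller share of reads was not tested.

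**Figure D1:**
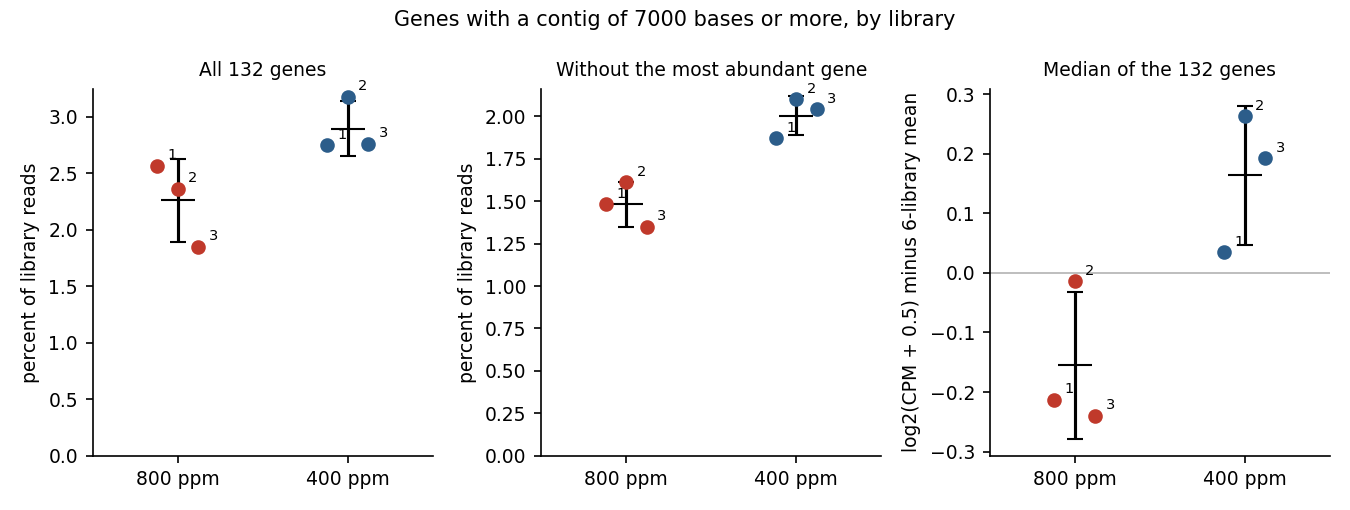
The left and middle panels plot the percent of library reads on all 132 genes and on the same genes without the most abundant one, and the right panel plots the median over the 132 genes of log2(CPM + 0.5) minus its mean over the 6 libraries. Numbered points are libraries, bars are mean ± SD (n = 3 per condition), and in each panel all 3 points at 800 ppm lie below all 3 at 400 ppm.

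A shift in the same direction was seen gene by gene, when each gene counted equally. In CPM (a read count relative to the library size after TMM scaling, the composition correction of edgeR), the median deviation of the 132 genes from their 6-library means was −0.21, −0.01 and −0.24 on the log2 scale in the 800 ppm libraries, against 0.03, 0.26 and 0.19 in the 400 ppm libraries. The same median over all genes tested stayed within ±0.02 in every library. Replicate 2 at 800 ppm and replicate 1 at 400 ppm lay nearest to each other. The scaling factors were 0.949, 0.898 and 0.888 at 800 ppm, against 1.13, 1.06 and 1.10 at 400 ppm. Length minus effective length, which follows the fragment length of a library, was 213.3, 222.5 and 208.9 bases at 800 ppm and 207.2, 212.7 and 210.2 bases at 400 ppm, with overlap, and its part in the shift was not tested.

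DEGs among the very long genes were mostly downregulated at 800 ppm. With edgeR's quasi-likelihood test over all genes and an FDR of 0.05, 36 of the 132 genes were called (27.3%), near the 24.8% called among all genes tested. The directions were uneven. Only 5 genes rose (3.79%, against 14.8% of all genes tested), and 31 fell (23.5%, against 9.96%). Downregulated genes thus made up 86.1% of the calls among the very long genes and 40.2% of the calls among all genes. The median fitted log2 fold change was −0.32 for the very long genes, with quartiles of −0.55 and 0.08, and −0.01 for all genes tested, with quartiles of −0.39 and 0.47.

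Over all 132 genes, called or not, the median size of the fitted log2 fold change was 0.44, against 0.42 for all genes tested. The 31 downregulated genes had fitted log2 fold changes between −0.43 and −1.40 with a median of −0.64, which corresponds to levels 1.35 to 2.63 times higher at 400 ppm. A fitted change of at least 2-fold was reached by 25% of the called very long genes (6 lower and 3 higher), against 48.4% of all called genes. Of the 96 genes that were not called, 63 had a fitted value below 0. Called or not, 94 of the 132 genes had one (71.2%), against 50.6% of all genes tested. By CPM alone, the 3 libraries at 800 ppm lay below the 3 at 400 ppm without overlap in 52 of the 132 genes (39.4%, against 21.3% of all genes tested), and above them in 12 (9.09%, against 24.1%).

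The number of calls depended on single libraries. It was 8 without 800 ppm replicate 1 (6 downregulated), 45 without 800 ppm replicate 2 (39 downregulated) and 18 without 800 ppm replicate 3 (13 downregulated). It was 34 without 400 ppm replicate 1 (32 downregulated), and 11 without 400 ppm replicate 2 or 3 (9 downregulated each). The 34 calls were 25.8% of the very long genes, against 17.9% of all genes called. The 45 calls without 800 ppm replicate 2 were 34.1%, against 23.4%. The share of very long genes called was then below the share of all genes called in 4 of these fits: 6.06% against 12.7% without 800 ppm replicate 1, 13.6% against 15.7% without 800 ppm replicate 3, 8.33% against 13% without 400 ppm replicate 2, and 8.33% against 13.1% without 400 ppm replicate 3. Without each library in turn, between 72.2% and 94.1% of the calls among the very long genes were downregulated, against 26.4% to 42.9% of the calls among all genes, and the median of the very long genes lay 0.26 to 0.40 below that of all genes on the log2 scale. Scaling by library size alone, which moved the median of all genes to −0.28, gave 72 downregulated and 3 upregulated very long genes and a median of −0.58. It called 56.8% of the very long genes, against 34.3% of all genes tested. Of the calls among all genes 72.0% were then downregulated, against 40.2% with TMM, and the distance between the medians stayed at −0.31.

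**Figure D2:**
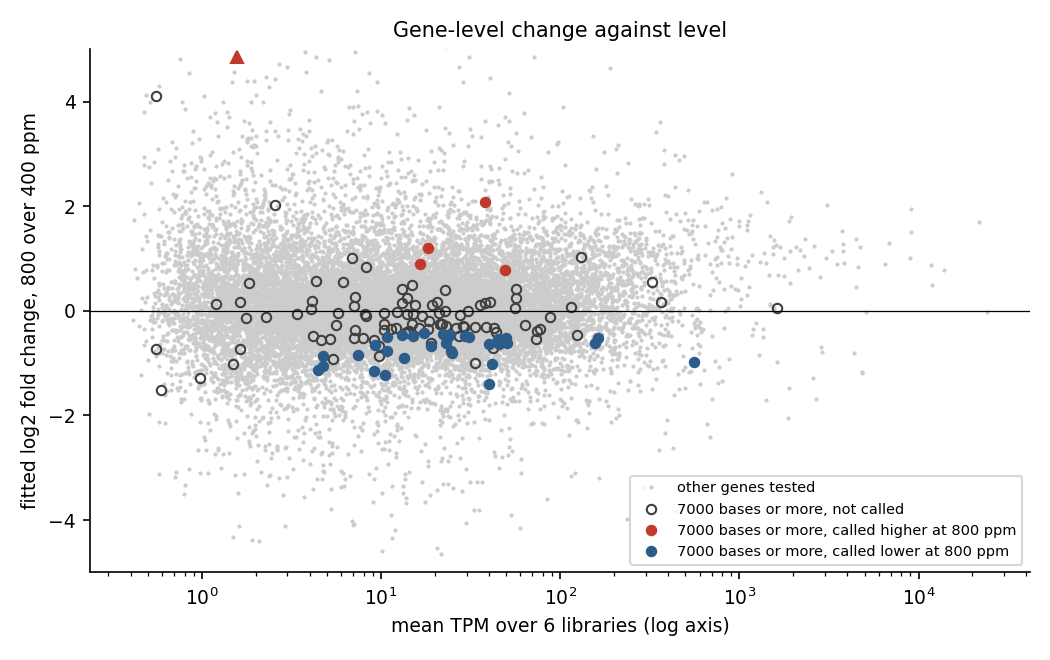
Each point is a gene, with its mean TPM over the 6 libraries on a log axis and its fitted log2 fold change, 800 over 400 ppm, on the vertical axis. The blue points (31 very long genes called lower) lie between −0.43 and −1.40 over a wide range of TPM, 5 red symbols are called higher, and the triangle marks 1 gene beyond the axis limit of 5 (26 other genes beyond ±5 are not drawn).

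Genes of the same level differed in their balance. Tested genes were put in bins of mean TPM. Between 3 and 10 TPM, 20.7% of 29 very long genes fell and 0% rose, against 6.47% and 8.94% of the 4932 remaining genes. Between 10 and 30 TPM, 26.4% of 53 very long genes fell and 3.77% rose, against 12% and 12.7% of 6149 genes. At 30 TPM and over, 29.7% of 37 very long genes fell and 5.41% rose, against 14.4% and 25.8% of 5744 genes. Under 1 TPM (4 very long genes) and between 1 and 3 TPM (9 genes) none fell, and 1 rose in the second of these bins. If the remaining genes had the same distribution over these bins as the very long genes, 10.6% of them would have fallen and 15.2% would have risen. With bins of mean reads in place of TPM, these shares were 13.5% and 24.0%. In the bin of 3000 reads and over, 37.0% of 27 very long genes fell and 3.70% rose, against 13.5% and 39.5% of 769 genes. These bins describe the genes, and no test was run over them.

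**Figure D3:**
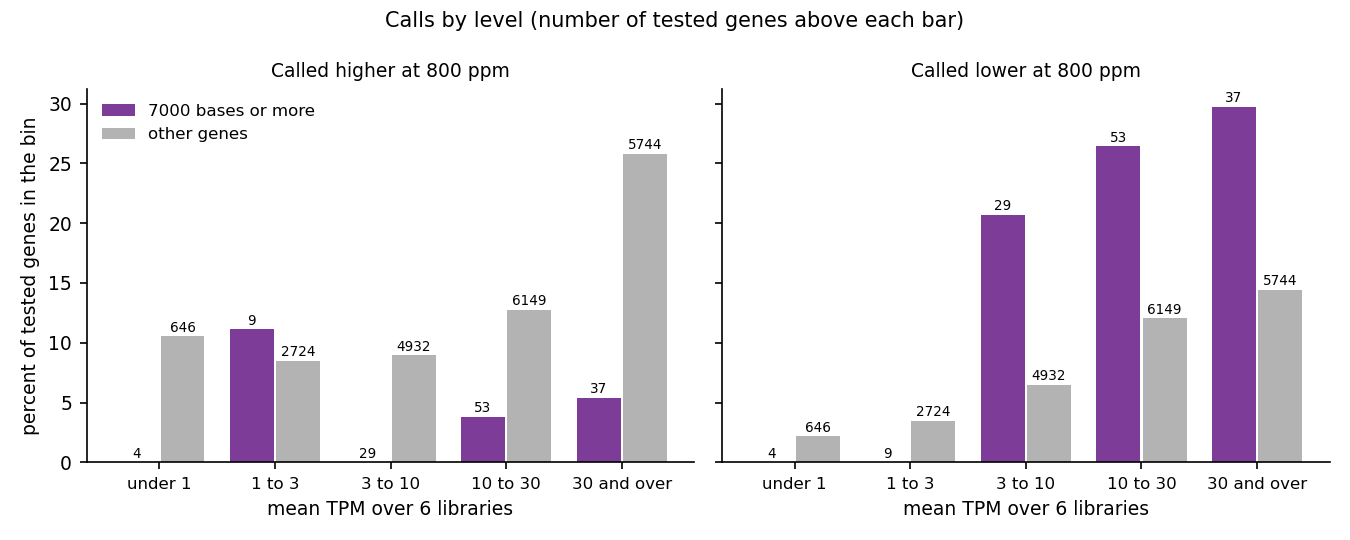
Bars give the percent of tested genes called higher (left) or lower (right) at 800 ppm in 5 bins of mean TPM, for genes with a contig of 7000 bases or more (purple) and for other genes (grey), with the number of genes above each bar. From 3 TPM upward the purple bars stand above the grey ones on the right (20.7%, 26.4% and 29.7%) and below them on the left (0%, 3.77% and 5.41%).

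The balance shifted with length already below 7000 bases. The share of calls that were downregulated was 32.5% for genes with a longest contig under 1000 bases, 36.0% for 1000 to 1999 bases, 40.0% for 2000 to 2999 bases, 53.1% for 3000 to 3999 bases, 54.1% for 4000 to 4999 bases and 64.3% for 5000 to 6999 bases. It was 86.7% for 7000 to 9999 bases and 83.3% for 10000 bases and over, where 26 genes gave 5 downregulated and 1 upregulated call. The median fitted log2 fold change over the same classes was 0.01, 0.04, −0.00, −0.07, −0.14, −0.22, −0.32 and −0.29. The median read number was higher in each longer class as well, 59.5 for the shortest class and 2058 for the longest, while the median TPM lay between 10.2 and 17.9.

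**Figure D4:**
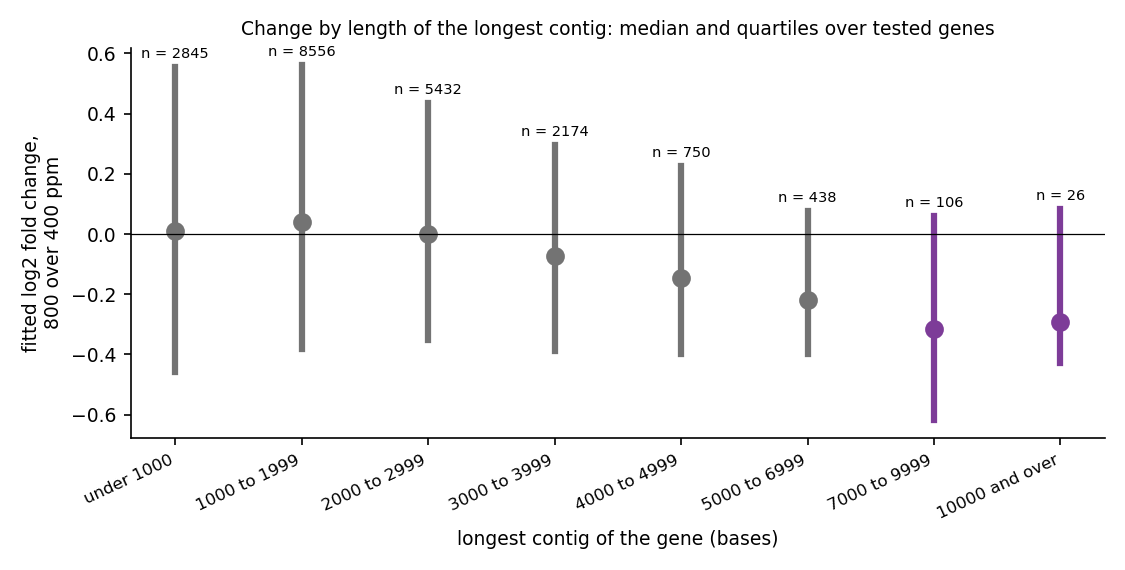
Points are medians and bars are quartiles of the fitted log2 fold change, 800 over 400 ppm, over the tested genes in 8 classes of the length of the longest contig. The medians lie between −0.00 and 0.04 below 3000 bases and fall below 0 from there on, to −0.32 and −0.29 in both classes of 7000 bases or more (purple).

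The balance had the same direction when the contigs of a gene were combined in other ways. Genes with a single contig gave 11 downregulated and 1 upregulated call among 51 genes, with a median of −0.35, while 9.25% of all 11605 tested genes with a single contig fell and 14.7% rose. When the long contigs alone were counted for each member, 25 genes fell and 5 rose among 131 tested. Of the 31 downregulated genes 23 were called again, and of the 5 upregulated genes 4. Counts were unchanged for the 51 genes with a single contig and for 9 genes whose several contigs were all long. Single contigs made up 11 of the 31 downregulated genes and 1 of the 5 upregulated genes, so their second calls are no separate result. That fit called 5070 genes in all, against 5036 in the main fit. Its median log2 fold change was −0.33 for the very long genes and −0.02 for all genes. The single-contig and the long-contig settings were both chosen after seeing the data. With each contig as a feature, 172 long contigs were tested, of which 19 fell (11.0%, against 5.22% of 32380 contigs) and 6 rose (3.49%, against 9.36%). In 60 genes with at least 50 mean reads on both their long and their shorter contigs, the difference between conditions was below 0 for the long contigs in 39 and for the shorter contigs in 37, and the long part was the lower of both in 28. The median difference between the long and the shorter part was 0.02 on the log2 scale (quartiles −0.28 and 0.39). Taken separately, the median difference between conditions was −0.267 for the long parts and −0.125 for the shorter parts. Paired within genes, the long contigs did not stand below their shorter partners as a group.

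Among upregulated genes at or above the median TPM of the very long genes, TRINITY_DN2507_c0_g1 had the largest fitted change. It has 5 contigs and a longest contig of 8255 bases. Its level was 150.4, 266 and 126 CPM at 800 ppm, against 49.0, 33.7 and 45.1 CPM at 400 ppm. All libraries at 800 ppm were above all at 400 ppm, and the fitted log2 fold change was 2.08 (SE 0.31, adjusted p = 0.00586, edgeR's quasi-likelihood test). The call was kept without any 1 of the 6 libraries. In TPM the change was smaller, with 42.7, 63.4 and 39.0 TPM at 800 ppm against 29.9, 20.5 and 31.7 TPM at 400 ppm (0.79 in log2(TPM + 1), adjusted p = 0.0370 in limma). The long contig itself was uneven, with 1479, 3042 and 83 reads at 800 ppm against 228, 23 and 125 at 400 ppm, so that its groups overlapped (adjusted p = 0.119 at the level of contigs). A contig of 4506 bases of the same gene had 470, 736 and 1460 reads at 800 ppm and 140, 329 and 106 reads at 400 ppm, a fitted log2 fold change of 2.52 (SE 0.54, adjusted p = 0.0284 in edgeR).

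The upregulated gene with the highest TPM, TRINITY_DN1124_c0_g1, was also among the longest, at 14230 bases. It had 321, 232 and 206 CPM at 800 ppm, against 134, 176 and 134 CPM at 400 ppm. The groups did not overlap, and the fitted log2 fold change was 0.77 (SE 0.20, adjusted p = 0.0345 in edgeR). The call held without 800 ppm replicate 2 or 3 and was lost without any other library (adjusted p between 0.0506 and 0.111), and with the replicate block the adjusted p was 0.0653. On the TPM scale the direction turned (−0.16 in log2(TPM + 1)). The median of all genes was −0.31 on that scale, which the value for this gene still exceeded. A contig of 1166 bases held 33.8%, 40.5% and 47.1% of the abundance of this gene at 800 ppm, against 57.5%, 53.0% and 53.5% at 400 ppm. The contig of 14230 bases had 25.1, 16.1 and 14.9 TPM at 800 ppm and 11.6, 14.5 and 10.4 TPM at 400 ppm, and it rose on its own (0.97, SE 0.23, adjusted p = 0.0382 in edgeR).

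Among the downregulated genes, TRINITY_DN3875_c0_g1 had the largest fitted change. Its level was 32.4, 59.0 and 30.7 CPM at 800 ppm, against 79.4, 104 and 139 CPM at 400 ppm, with a fitted log2 fold change of −1.40 (SE 0.31, adjusted p = 0.0217 in edgeR). This gene stood just inside the length limit, and its contig of 7066 bases carried 9.15% of its reads. That contig had 77, 188 and 63 reads at 800 ppm and 68, 185 and 103 reads at 400 ppm (log2 fold change 0.10, adjusted p = 0.901 in edgeR). The fall was found in a contig of 1592 bases, with 7.53, 9.73 and 4.63 TPM at 800 ppm against 34.3, 36.4 and 65.1 TPM at 400 ppm (−2.28, SE 0.36, adjusted p = 0.0116 in edgeR), and in one of 6597 bases (−1.49, adjusted p = 0.0152). The call at the level of the gene was lost without 400 ppm replicate 2 or 3 and without 800 ppm replicate 1 or 3 (adjusted p between 0.0587 and 0.0811).

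TRINITY_DN1459_c0_g1 was the downregulated gene with the highest TPM, at 205, 432 and 245 TPM at 800 ppm, against 791, 762 and 914 TPM at 400 ppm. In CPM it had 283, 535 and 376 at 800 ppm and 731, 770.2 and 835 at 400 ppm, a fitted log2 fold change of −0.97 (SE 0.23, adjusted p = 0.0267 in edgeR). Here too the long contigs were minor, with 17.0% of the reads. The contig of 7351 bases had 15, 13.3 and 20.6 TPM at 800 ppm, against 21.9, 22.8 and 19.2 TPM at 400 ppm, and its fitted log2 fold change was −0.02 (adjusted p = 0.958 in edgeR). A contig of 1469 bases held a mean of 92.7% of the abundance at 800 ppm and 96.3% at 400 ppm. The call for the gene held without 800 ppm replicate 2, the highest library at 800 ppm, and was lost without any other library (adjusted p between 0.0523 and 0.0797 in edgeR).

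**Figure D5:**
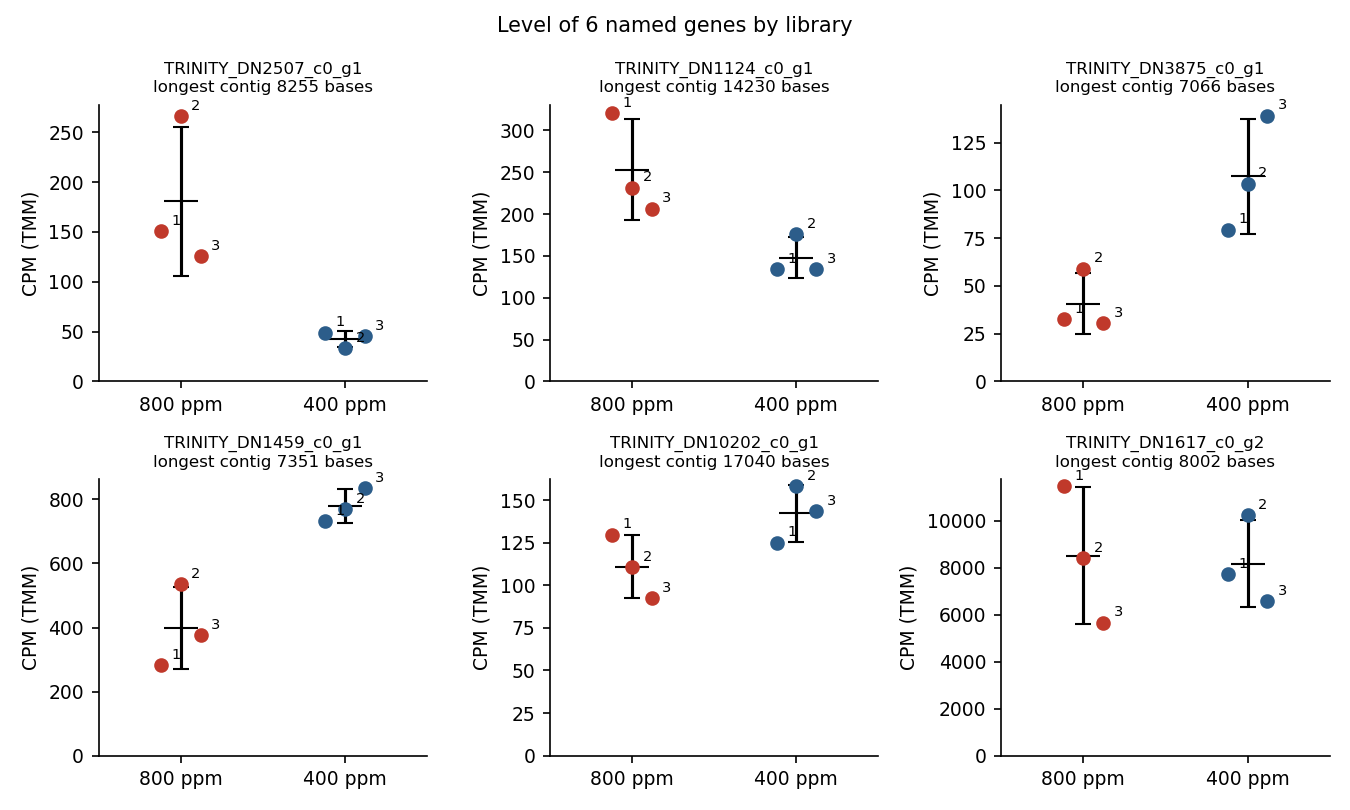
CPM by library for 6 genes with a contig of 7000 bases or more, with numbered points for libraries and bars for mean ± SD (n = 3 per condition). In the top row and at the lower left are the 4 called genes, whose groups do not overlap, and at the lower middle and right are the gene with the longest contig and the most abundant gene, whose groups overlap (92.5 to 129.7 against 125 to 158 CPM, and 5668 to 11485 against 6575 to 10234 CPM).

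In most called genes, as in most of the 132 genes but unlike TRINITY_DN3875_c0_g1 and TRINITY_DN1459_c0_g1, the long contigs held most of the reads. They held more than 50% of the reads in 25 of the 31 downregulated genes and in 4 of the 5 upregulated genes. Among all very long genes they did so by construction in the 51 with a single contig and the 9 with several long contigs only. They also did so in 52 of the 72 with long and shorter contigs. A gene with a single contig of 8250 bases had 41.3, 43.5 and 39.1 CPM at 800 ppm, against 63.2, 65.5 and 67.3 CPM at 400 ppm, with narrow groups that lay well apart (−0.66, SE 0.10, adjusted p = 0.00620 in edgeR). A gene with a single contig of 7785 bases had 15.6, 18.2 and 15.6 CPM at 800 ppm and 26.6, 41.9 and 34.5 CPM at 400 ppm (−1.06, SE 0.19, adjusted p = 0.00969 in edgeR). Both calls were kept without any 1 library. This held for 8 of the 36 calls, 6 downregulated and 2 upregulated, the second upregulated one being a gene of 7683 bases with 104, 89.4 and 99.1 CPM at 800 ppm against 53.5, 47.4 and 56.0 CPM at 400 ppm (0.90, SE 0.12, adjusted p = 0.00381 in edgeR).

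At the far end of the length scale, 12 genes had a contig of 12000 bases or more, 8 of them as a single contig. Their mean levels ran between 1.76 and 49.1 TPM. Of these genes 4 fell and 1 rose, beside the 9.96% and 14.8% of all genes tested. The fitted value was below 0 in 11, against 50.6% of all genes tested. The gene of 12059 bases had 71.9, 92.8 and 70.7 CPM at 800 ppm, against 107, 180.2 and 153 CPM at 400 ppm, the largest fall of the 4 (−0.90, adjusted p = 0.0261 in edgeR). The gene of 15947 bases had 244, 286 and 240 CPM at 800 ppm and 316, 406 and 359 CPM at 400 ppm (−0.49, adjusted p = 0.0451 in edgeR). In neither gene did the groups overlap. Both calls held without 400 ppm replicate 1 or 800 ppm replicate 2 and were lost without any other library (adjusted p up to 0.0943 and 0.131 in edgeR).

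The longest contig of all, the single contig of TRINITY_DN10202_c0_g1 with 17040 bases, did not pass the test. It had 129.7, 111 and 92.5 CPM at 800 ppm, against 125, 158 and 144 CPM at 400 ppm. Replicate 1 at 800 ppm exceeded the lowest library at 400 ppm, and the fitted log2 fold change was −0.36 (SE 0.16, adjusted p = 0.146 in edgeR).

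The most abundant gene, TRINITY_DN1617_c0_g2, showed no call either. Its level was 1869, 2259.7 and 844 TPM at 800 ppm, against 1575, 1913 and 1303 TPM at 400 ppm, and the fitted log2 fold change was 0.06 (SE 0.29, adjusted p = 0.903 in edgeR). The groups overlapped fully. Of the 9 very long genes at 100 TPM or more, 3 fell and none rose, while 12.7% of all 1562 tested genes at this level fell and 39.9% rose. In the 3 that fell, the long contigs held a mean of 2.75% to 21.8% of the abundance at 400 ppm.

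A gene that was not called could hold contigs that were. TRINITY_DN2201_c0_g1, which has 8 contigs, had 113, 111 and 104 CPM at 800 ppm and 106, 89.8 and 100.8 CPM at 400 ppm (0.15, SE 0.11, adjusted p = 0.363 in edgeR). Its contig of 7448 bases had 2.58, 3.21 and 3.21 TPM at 800 ppm, against 1.40, 1.87 and 1.12 TPM at 400 ppm, and rose (1.39, SE 0.25, adjusted p = 0.0181 in edgeR). Its contig of 2907 bases had 6.25, 7.05 and 6.68 TPM at 800 ppm, against 13.4, 12.7 and 12.1 TPM at 400 ppm, and fell (−0.58, SE 0.13, adjusted p = 0.0338 in edgeR). The groups did not overlap for either contig. TRINITY_DN1134_c0_g1, with 8 contigs as well, was not called either (0.16, SE 0.20, adjusted p = 0.590 in edgeR), although its contig of 5079 bases rose, with 11.3, 4.38 and 6.32 TPM at 800 ppm against 2.76, 2.82 and 2.96 TPM at 400 ppm (1.71, SE 0.32, adjusted p = 0.0197 in edgeR).

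A gene with a single contig of 7138 bases was found only in the libraries at 800 ppm, with 83, 739 and 59 reads, against 0 reads in each library at 400 ppm. Against a floor of 3 reads over the 400 ppm group, its CPM was at least 318-fold higher at 800 ppm, and at least 83.5-fold higher without 800 ppm replicate 2, which held most of the reads. It passed the filter on low counts through the 800 ppm libraries alone, so that its place among the 5 upregulated genes is no support for a direction. DESeq2 gave it no adjusted p, and the call in edgeR was lost without 800 ppm replicate 1 or any library at 400 ppm.

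The spread between replicates was wide in some of the very long genes. The median coefficient of variation within a condition was 14.1% for the 132 genes and 16.6% for all genes tested. It was lower, at 11.4%, for the 4832 other genes with read numbers between the quartiles of the very long genes. In 13 of the very long genes the mean coefficient exceeded 50%, a count for which no share over all genes is given here. The smallest fitted fold change of all belonged to one of these, TRINITY_DN760_c0_g1 with a contig of 11719 bases. It had 13.3, 162 and 189 CPM at 800 ppm, against 119, 202 and 42.4 CPM at 400 ppm, and the fitted log2 fold change was 0.00 with an SE of 0.90. Replicate 1 at 800 ppm and replicate 3 at 400 ppm were the low libraries, and the groups overlapped.

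The contigs nearest the limit spanned similar levels on both sides. Just inside lay contigs of 7001, 7020 and 7021 bases with mean levels of 9.48, 29.8 and 0.802 TPM, and just outside lay contigs of 6990, 6987 and 6970 bases with 18.4, 0.277 and 20.7 TPM. The contigs of 6987 and 6970 bases belong to genes that are members through a longer contig.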

How the data were processed

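Leaf RNA was sequenced by the authors as paired-end reads (Illumina NovaSeq 6000), 3 libraries per CO2 concentration. The authors assembled the merged reads with Trinity, kept open reading frames over 100 amino acids (TransDecoder), reduced redundancy with CD-hit and ran the expression script of Trinity. Names and versions of the aligner and estimation program: not given in the sources used here. In each library table the authors deposited, for every contig, an unnormalized estimated count, TPM, FPKM, the percent of the abundance of its gene that a contig held, the length and the effective length. FPKM was not used.

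Estimated counts were rounded and summed over the contigs of each gene. Genes passing filterByExpr (min.count 10, min.total.count 15) entered edgeR 4.0.16 (R 4.3.3; glmQLFit, glmQLFTest, TMM, Benjamini-Hochberg adjustment over all genes tested, FDR 0.05), with CO2 as the only term. The SE of a log2 fold change is the one implied by the F statistic. Contigs were fitted likewise. The biological coefficient of variation was 27.4% for genes and 38.8% for contigs. No 2 libraries of a condition agreed within sampling noise. The scripts were tested on simulated data. Alternatives used DESeq2 1.42.0, limma 3.58.1 on log2(TPM + 1) and log2(TPM + 0.1), other scalings, filters, lengths and thresholds, leaving out single libraries, and a replicate block.

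Members and lists were chosen with earlier results of these data known. Gene IDs were named by a rule, 2 genes per direction among called genes without overlap of the groups (the largest fitted change at or above the median TPM of the members, and the highest TPM), and, if not called, the longest, the most abundant, those with most contigs and the one with the smallest change. Other called genes are given by length. Figures were drawn with matplotlib 3.10.9.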

Additional observations from a re-analysis of the deposited data

How the results depend on the processing

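The counts of calls moved with the setting. Downregulated genes outnumbered upregulated ones under every setting run, and downregulated long contigs did so except without 800 ppm replicate 1 (3 higher, 2 lower). Of genes with a contig of 7000 bases or more, 36 were called (5 higher, 31 lower at 800 ppm). Library size alone gave 75 (3 and 72), with a median of −0.58. This was 56.8% of these genes, against 34.3% of all genes tested. The limma fits gave 75 (2 and 73, median −0.63) on log2(TPM + 1) and 76 (3 and 73, median −0.67) on log2(TPM + 0.1). These were 56.8% and 57.6% of the very long genes, against 38.1% and 37.7% of all genes tested. The medians of all genes moved as well, to −0.31 and −0.35, with 77.8% and 77.7% of all calls downregulated. DESeq2 called 8 higher and 43 lower, 38.6% of these genes, against 31.1% of all genes tested. Of its calls among all genes 44.2% were downregulated. Limits of 6000, 8000 and 10000 bases gave 66 (15 and 51), 19 (3 and 16) and 6 (1 and 5). These were out of 284, 68 and 26 genes, beside the 24.8% called among all genes tested. An FDR of 0.01 gave 5 (2 and 3), for which no share over all genes is given here. A 2-fold minimum gave 9 (3 and 6), and genes with 1 contig, a choice made after seeing the data, 12 (1 and 11). Leaving out each library in turn gave between 8 and 45 (2 to 6 higher, 6 to 39 lower). RLE factors, both other filters and the long contigs alone stayed within 1.5 times the 36 calls. Of long contigs, 25 were called (6 and 19). Library size alone gave 74 (70 lower), DESeq2 48 (40 lower), and leaving out each library in turn between 3 and 28 (1 to 4 higher, 2 to 24 lower). Shares over all contigs are not given here for these settings, so these counts are no result about the long contigs.

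Replicate numbers did not pair the libraries (correlations of same-numbered libraries 0.20, 0.02 and −0.14). With the replicate block, 28 genes (4 and 24) and 11 long contigs (3 and 8) were called, and 20 of the 31 downregulated genes were among them. The 28 genes were 21.2% of the very long genes, against 18.5% called among all genes tested. For the 11 long contigs no share over all contigs is given here. Of the calls among all genes 36.1% were then downregulated.

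The share of reads was 3.58% at 800 ppm and 4.56% at 400 ppm for 6000 bases, 1.45% and 1.85% for 8000, and 0.337% and 0.469% for 10000. It was 2.41% at 400 ppm for the long contigs alone, and 1.48% and 2.01% without the most abundant gene. Of summed TPM the genes took 0.520% and 0.698%. The shares called among other genes in TPM bins (15.2% higher, 10.6% lower) were 24.0% and 13.5% in bins of reads, and 8.85% to 14.0% and 3.68% to 10.8% with a library left out. TRINITY_DN1124_c0_g1 reversed to −0.16 in both TPM fits. The causes were not tested.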

Other observations

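Within TRINITY_DN1617_c0_g2, the most abundant of these genes, 1 library at 800 ppm used contigs that were almost empty elsewhere. The contig of 7062 bases had 24415 reads in 800 ppm replicate 2, against 6 and 17 reads in the other libraries at 800 ppm and 13, 0 and 45 at 400 ppm. A contig of 610 bases had 5455 reads in 800 ppm replicate 2, against 2 and 0 in the other libraries at 800 ppm and 0, 2 and 7 at 400 ppm. The contig of 8002 bases held 43.7% of the abundance of the gene in that library and between 99.8% and 100% in the other 5. The sum over the contigs was 8398 CPM there, between the 11485 and 5668 CPM of the other libraries at 800 ppm.

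Besides the gene of 7138 bases, 2 very long genes had 0 reads in some libraries and many in others. A single contig of 13122 bases had 340, 387 and 0 reads at 800 ppm and 532, 0 and 244 reads at 400 ppm. A single contig of 10337 bases had 131, 7 and 241 reads at 800 ppm and 0, 0 and 25 reads at 400 ppm (adjusted p = 0.110, edgeR's quasi-likelihood test). A single contig of 8685 bases had 20, 1 and 225 reads at 800 ppm and 385, 182 and 14 reads at 400 ppm. None of these 3 genes was called, and in each the groups overlapped.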
